A study of Mus musculus with 6 samples.

Results

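The transcripts described here are the RefSeq noncoding RNAs of the array, that is, every transcript with a probe that was not a control and whose accession starts with NR_ (curated noncoding) or XR_ (predicted noncoding). There were 4542 such transcripts among the 47906 with a probe, 2695 with an NR_ and 1847 with an XR_ accession, after transcripts of H19, Meg3 and 2310065F04Rik were left out (4 transcripts). RNA came from the quadriceps of male AR97Q mice aged 9 weeks, which model the neuromuscular disease spinal and bulbar muscular atrophy and carry a human androgen receptor gene with an expanded CAG repeat on a C57BL/6J background. The Exercise group (n = 3 mice) had run on a forced wheel in the weeks before sampling, and the Sedentary group (n = 3 mice) had not. Every mouse of both groups carried the transgene, so the arrays measure the effect of exercise within the disease model and hold no wild-type muscle, and each mouse was measured on 1 array. The question was which noncoding transcripts differed between exercised and sedentary AR97Q muscle.

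Noncoding transcripts cover several kinds of RNA. Small structural RNAs carry out splicing, RNA modification and RNA processing, long noncoding RNAs (lncRNAs) are spliced like mRNAs without being translated and can act at chromatin or serve as hosts from which small RNAs are cut, and transcribed pseudogenes are copies of coding genes that are still read. In skeletal muscle the microRNAs miR-1 and miR-133 are known as muscle-restricted regulators of differentiation, and they are cut from long host transcripts. The array measured such host transcripts and not the mature microRNAs.

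Of the 1458 transcripts tested, 63 (4.32%) were higher and 20 (1.37%) were lower in exercised muscle, by an adjusted p under 0.05 and a log2 fold change of at least 1 in size. Over all transcripts tested the shares were 1.68% and 1.06%. Of the 63 and the 20, 7 and 10 were well above background on no array of the dimmer group. No call was left without any 1 of 5 of the 6 arrays. The largest rise among transcripts measured in both groups was that of Mir1a-1hg, the host transcript of Mir1a-1 and Mir133a-2, at 5.69-fold. A noncoding variant of Zfp207 (3.04-fold lower) and the small nucleolar RNA Snora81 (2.61-fold lower) were the largest falls of that kind. With normexp background correction and quantile normalization these log2 fold changes were smaller in size: 1.34 against 2.51 for Mir1a-1hg, -0.45 against -1.60 for Zfp207 and -0.40 against -1.38 for Snora81. The lists of nuclear lncRNAs, hosts of small nucleolar RNAs and small structural RNAs had no tested member past both thresholds. Some well-known members, such as Malat1 and Xist, were not tested.

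The mature microRNA sequences below belong to microRNA genes inside lncRNA genes that are described later, and were not themselves measured. They are from RefSeq (GRCm38.p6), written 5′ to 3′, with the seed (bases 2 to 8) in capitals. The first lies inside Mir1a-1hg (chr2:180389057-180389079, plus strand) and is the 5p arm of Mir1a-1. The other arm of Mir1a-1 and the sequences of Mir133a-2 were not in the reference used. The seed marked for Mir1a-1 is therefore that of its 5p arm only. The next pair lies inside Dleu2 (chr14:61632075-61632096 and chr14:61631936-61631957, minus strand) and shares 1 seed, and the last lies inside E130102H24Rik (chr4:101346957-101346977, minus strand).
mmu-miR-1a-1-5p: aCAUACUUcuuuauaugcccaua
mmu-miR-15a-5p: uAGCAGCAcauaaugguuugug
mmu-miR-16-5p: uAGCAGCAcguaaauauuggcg
mmu-miR-101a-3p: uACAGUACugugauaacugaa

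Promoter windows of 300 bases across the RefSeq start are shown for 5 of the transcripts that rose and 1 that fell, a selection from the named transcripts and not the largest changes in order. They are GRCm38.p6 sequences, 5′ to 3′ on the strand of the transcript: Mir1a-1hg (chr2:180385354-180385653, plus strand), 7420701I03Rik (chr12:11047563-11047862, plus strand), 4933401D09Rik (chr17:15631538-15631837, plus strand), E330012B07Rik (chr6:147179991-147180290, plus strand), Myhas (chr11:67237232-67237531, minus strand) and 1700016J18Rik (chr10:42017904-42018203, plus strand). Capitals mark matches, on either strand, to 6 motifs: the AP-1 site TGANTCA, the E-box CAGCTG, the ERR-type site AAGGTCA, the steroid receptor hexamer AGAACA, the TATA box TATAAA and the MEF2 element. Every window shown holds a match. The windows of the falls Zfp207, Vax2os, B130055M24Rik, 9130024F11Rik and E030013I19Rik, which are not shown, held none. Among the rises, the windows of Sox6os and Gm35204 and 1 window of Hk1os, also not shown, held none either.
Mir1a-1hg promoter: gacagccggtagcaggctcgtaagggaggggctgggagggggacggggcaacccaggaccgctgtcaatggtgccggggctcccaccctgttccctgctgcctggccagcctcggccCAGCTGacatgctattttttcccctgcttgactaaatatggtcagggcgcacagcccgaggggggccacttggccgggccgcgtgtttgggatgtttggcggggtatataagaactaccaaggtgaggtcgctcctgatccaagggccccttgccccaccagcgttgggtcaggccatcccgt
7420701I03Rik promoter: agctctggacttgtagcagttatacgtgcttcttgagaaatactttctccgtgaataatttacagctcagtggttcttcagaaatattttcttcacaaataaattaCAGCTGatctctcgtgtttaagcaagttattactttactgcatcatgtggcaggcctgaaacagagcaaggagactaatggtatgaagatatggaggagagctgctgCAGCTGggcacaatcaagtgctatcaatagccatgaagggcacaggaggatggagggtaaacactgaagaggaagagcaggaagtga
4933401D09Rik promoter: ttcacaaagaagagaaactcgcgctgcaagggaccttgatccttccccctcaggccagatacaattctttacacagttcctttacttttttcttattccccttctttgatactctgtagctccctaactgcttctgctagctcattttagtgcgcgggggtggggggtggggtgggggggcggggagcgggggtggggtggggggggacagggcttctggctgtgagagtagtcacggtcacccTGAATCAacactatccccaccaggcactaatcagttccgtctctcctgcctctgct
E330012B07Rik promoter: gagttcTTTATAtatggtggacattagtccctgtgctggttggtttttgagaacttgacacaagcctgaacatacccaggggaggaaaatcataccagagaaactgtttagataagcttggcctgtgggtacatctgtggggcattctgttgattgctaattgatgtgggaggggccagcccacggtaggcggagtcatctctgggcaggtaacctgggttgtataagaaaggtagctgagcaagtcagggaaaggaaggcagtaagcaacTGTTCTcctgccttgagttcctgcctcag
Myhas promoter: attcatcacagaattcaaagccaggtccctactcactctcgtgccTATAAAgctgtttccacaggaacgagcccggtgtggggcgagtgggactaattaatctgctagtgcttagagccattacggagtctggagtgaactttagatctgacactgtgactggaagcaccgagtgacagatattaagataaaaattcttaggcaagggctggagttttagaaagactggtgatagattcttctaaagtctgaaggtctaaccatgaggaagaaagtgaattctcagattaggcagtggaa
1700016J18Rik promoter: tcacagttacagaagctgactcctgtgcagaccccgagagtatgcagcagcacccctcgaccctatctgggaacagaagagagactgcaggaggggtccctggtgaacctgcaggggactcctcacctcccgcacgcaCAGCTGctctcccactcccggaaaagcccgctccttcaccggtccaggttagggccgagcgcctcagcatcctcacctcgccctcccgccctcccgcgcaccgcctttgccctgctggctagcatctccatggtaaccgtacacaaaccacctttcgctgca

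The E-box, a site bound by muscle-determining factors such as MyoD, was found in the Mir1a-1hg, 7420701I03Rik and 1700016J18Rik windows. Among the promoters of transcripts called higher, 12 of 50 (24%) held it, against 18.4% of 1061 promoters of tested noncoding genes and 16.3% of all 32851 promoters. The steroid receptor hexamer was in 15 of 50 promoters (30.0%) of the transcripts called higher and in 0 of 21 promoters of those called lower, against 19% of all promoters. The AP-1 site was in 9 of 50 (18%), 1 of 21 (4.76%) and 7.81% of all. Junos alone contributed 7 promoters. Without it, 25.6% held the steroid receptor hexamer, 16.3% the AP-1 site and 27.9% the E-box. The ERR-type site (6.0% of promoters of transcripts called higher, 4.76% of those called lower and 4.72% of all), the TATA box (8.0, 14.3 and 13.6%) and the MEF2 element (4.0, 4.76 and 3.19%) are given in the same order. These are letter matches in small sets of promoters and were not tested, and 50 of the 83 called transcripts had a promoter in the table.

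Detection came first, since a dim spot carries little information. A transcript was counted as detected when at least 3 of the 6 arrays showed a signal well above background. By that count 1459 of the 4542 noncoding transcripts (32.1%) were detected in quadriceps, against 72.1% of the protein-coding NM_ transcripts and 58.9% of all other transcripts. A count on all 6 arrays gave 25.9% and a count on at least 1 array 42.8%, and 2598 noncoding transcripts were above background on no array. Curated NR_ transcripts were detected more often (37.0%) than predicted XR_ transcripts (25.1%).

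The classes differed widely in detection. Every one of the 11 small nucleolar RNAs and 7 small nuclear RNAs was detected, as were the 4 transcripts of RNase P RNA and the RNase MRP RNA. Noncoding variants of coding genes reached 55.9% (71 of 127) and transcribed pseudogenes 51.5% (136 of 264), whereas lncRNAs reached 29.4% (998 of 3389). A pseudogene or a noncoding variant shares sequence with a coding transcript, and a spot cannot tell closely related sequences apart.

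**Figure D1:**
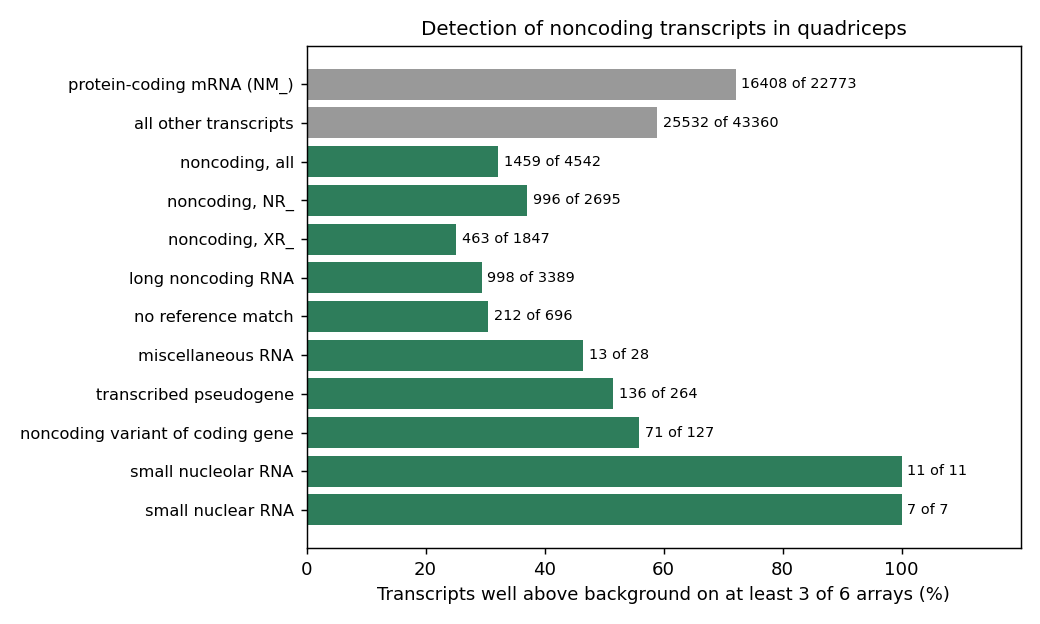
Share of transcripts detected, with 3 or more arrays well above background (x axis, %) by class, with the number detected of the number on the array beside each bar. Noncoding transcripts (green) were detected in 32.1% of cases against 72.1% of protein-coding NM_ transcripts (grey), and small nucleolar and small nuclear RNAs in every case.

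Per array, 30.8% ± 1.51 (SD, n = 3) of the probes of noncoding transcripts were well above background after exercise, against 33.2% ± 1.57 (SD, n = 3) in sedentary mice (exact two-sided permutation test, p = 0.2). Among all probes the shares were 56.1% ± 1.39 and 58.9% ± 1.06 (exact p = 0.1, the smallest that 3 arrays against 3 allow). There were 31 noncoding transcripts well above background on all Sedentary arrays and on no Exercise array, and 7 with the opposite pattern. Among the 43360 other transcripts these counts were 341 and 34. The 75th percentile of the signal ranged from 251 to 257 for Exercise and from 310 to 384 for Sedentary. Saturated spots were absent. A single slide held all 6 arrays, and on it 1 strip held the Exercise arrays and Sedentary replicate 1 and the other strip held Sedentary replicates 2 and 3. A value within the shared strip, that is the Exercise mean minus Sedentary replicate 1, is therefore given beside the main results.

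The markers listed for skeletal muscle (Acta1, Ckm, Myh4, Tnnt3 and Pvalb) were among the bright transcripts of the arrays. The list holds fast-fibre genes such as Myh4 and no slow-fibre myosin, so it does not stand for muscle as a whole. The paper reported more fast-twitch fibres in the quadriceps of exercised than of sedentary AR97Q mice. All 5 were higher in the Exercise group at an adjusted p under 0.05, by a median of 0.93 on the log2 scale, and their summed signal, in multiples of the 75th percentile, was 4380 to 4970 on the Exercise and 1810 to 2910 on the Sedentary arrays. The summed signals of the following cell types overlapped between the groups: macrophage markers 35.0 to 40.9 against 35.5 to 40.5, endothelial 15.3 to 20.4 against 15.0 to 18.1, fibroblast 455 to 499 against 423 to 567, adipocyte 222 to 552 against 374 to 475, Schwann cell and nerve 39.7 to 47.4 against 45.0 to 59.8, and red blood cell 210 to 303 against 127 to 273. Smooth muscle markers summed to 400 to 467 against 206 to 249, without overlap, although 3 of the 5 had negative log2 fold changes (median -0.52). The sum was dominated by the brightest probe of Acta2 (log2 fold change 1.32), whose other probes were at -0.8 and -0.89. Myh11 was lower (-0.95), and Cnn1 (-1.66), Tagln (-0.52) and Des (0.15) did not pass the test. Among the adipocyte markers Lep (0.35) passed at an adjusted p under 0.05. The part of these differences in the noncoding results was not tested. In a whole-muscle sample a different number of cells of a type, a different fibre type and a different amount of RNA per cell cannot be told apart.

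Exercise was compared with sedentary over all 26990 detected transcripts, and 1458 of them were noncoding. The 63 noncoding transcripts called higher were 4.32% of those tested, against 1.68% of all transcripts tested, and the 20 called lower were 1.37%, against 1.06%. By adjusted p alone 207 (14.2%) were higher against 11.2% of all transcripts, and 95 (6.52%) were lower against 6.02%. The Exercise arrays were all above the Sedentary ones for 27.3% of the noncoding transcripts, against 24.7% of all, and below them for 14.9%, against 18.2%. The median log2 fold change was 0.10 over the noncoding transcripts and 0.02 over all transcripts tested. NR_ transcripts had 35 higher and 15 lower (median 0.08) and XR_ transcripts 28 higher and 5 lower (median 0.17).

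By class, lncRNAs had 42 higher (4.21%) and 15 lower (1.5%) of 998. These shares were close to those of all noncoding transcripts tested (4.32% and 1.37%). Over all transcripts tested they were 1.68% and 1.06%. Transcribed pseudogenes had 6 higher and 1 lower of 135, noncoding variants of coding genes 0 higher and 1 lower of 71, small nucleolar RNAs 0 higher and 1 lower of 11, and transcripts without a reference match 14 higher and 2 lower of 212. The remaining call, of B430319F04Rik, was a miscellaneous RNA, at a log2 fold change of 1.00. The median level over all arrays, in log2 relative to the 75th percentile, was -1.54 for transcripts called higher, -3.72 for those called lower and -2.24 for the uncalled, so that the falls lay among dim spots.

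The groups did not overlap for any of the 83 called transcripts, and the adjusted p of the calls lay between 0.0234 and 0.0488. Within the shared strip the median was 0.94 for the 63 higher, against 1.29 in the full comparison, and -1.07 for the 20 lower, against -1.33. Of the 63, 27 stayed at 1 or more there, and of the 20, 12 stayed at -1 or less. Sedentary replicate 1 was the highest Sedentary array for 57 of the 63 and the lowest for 17 of the 20, that is, the one nearest to the Exercise group. No call was left when Exercise replicate 1, 2 or 3 or Sedentary replicate 2 or 3 was left out or when the strip was a block, and 94 higher and 37 lower were called without Sedentary replicate 1.

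The balance of rises and falls depended on how the arrays were scaled. Of the calls, 24.1% were lower with the 75th percentile, 87.4% (22 higher, 153 lower) without scaling, 54.3% (37 higher, 44 lower) in the authors' table and 4.2% (23 higher, 1 lower) after normexp background correction and quantile normalization. The noncoding median minus the median of all transcripts was 0.082, and it was 0.127 with quantile normalization, 0.056 after normexp, 0.064 with the strip as a block and 0.177 without a filter.

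**Figure D2:**
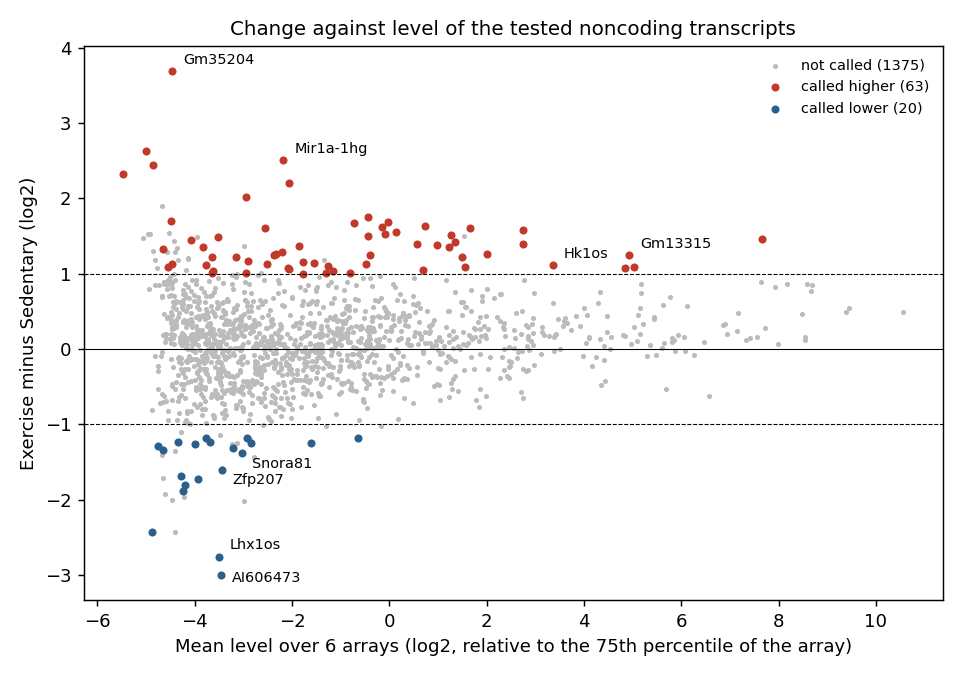
Exercise minus Sedentary log2 difference (y axis) against the mean log2 level over 6 arrays relative to the 75th percentile of the array (x axis) for the 1458 tested noncoding transcripts, with dashed lines at 1 and -1. The 63 transcripts called higher (red) range over levels from -5.47 to 7.66, whereas the 20 called lower (blue) lie between -4.86 and -0.64.

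Mir1a-1hg (NR_045331, chromosome 2) was the clearest rise. Its log2 level was -1.01, -1.21 and -0.54 on Exercise arrays 1 to 3 and -2.94, -3.79 and -3.56 on Sedentary arrays 1 to 3. Every Exercise array was more than 1 log2 unit above every Sedentary array, and all 6 spots were well above background. The log2 fold change was 2.51 ± 0.27 (SE, adjusted p = 0.0234), and it was 2.02 within the shared strip. The overlapping lncRNA B230312C02Rik was at 0.43 (adjusted p = 0.105), and the nearest coding gene, Gata5, which encodes a GATA transcription factor, had 0.90 (adjusted p = 0.0234).

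Among the 16 tested lncRNA genes that hold a microRNA gene, Mir1a-1hg had by far the highest value: 13 of the 16 had a negative log2 fold change, the median was -0.29, and no other was called. The counts were 11 negative with array median scaling and 15 without scaling. E130102H24Rik, which holds Mir101a, was at -0.78 ± 0.15 (adjusted p = 0.0274), with levels of -0.98, -0.54 and -1.04 on the Exercise and -0.04, 0.00 and -0.19 on the Sedentary arrays. Dleu2, which holds Mir15a and Mir16-1, microRNAs known as brakes on the cell cycle, was at -0.47 ± 0.12 (adjusted p = 0.0436). A list drawn up as microRNA hosts, which lacks Mir1a-1hg, had 9 members with a test result, and all 9 were negative (median -0.30). Under array median scaling 1 of the 9 was positive. Mir99ahg and Mirt1 were on that list but not among the 16, which were found by gene position in the reference. Such a search can miss hosts, so it does not show that Mir99ahg holds no microRNA. By adjusted p alone 0 of the 9 were higher and 2 lower, Dleu2 and Mir99ahg (-0.45 ± 0.11, adjusted p = 0.0433). That count gave 11.2% higher and 6.02% lower over all transcripts tested. Dnm3os, which holds Mir199a-2 and Mir214, was at -0.62 ± 0.31 (adjusted p = 0.202) with overlapping groups. Mirt1 had no Exercise spot well above background, its groups overlapped, and it did not pass the test (adjusted p = 0.299).

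The next rises were transcripts without a known function. 7420701I03Rik (NR_045860) had levels of -0.73, -1.08 and -1.05 in the Exercise group and -2.53, -3.39 and -3.53 in the Sedentary group, a log2 fold change of 2.20 ± 0.28 (adjusted p = 0.0234). 4933401D09Rik (NR_045431) had levels of -1.75, -2.05 and -2.0 against -3.41, -4.14 and -4.29, and a log2 fold change of 2.01 ± 0.24 (adjusted p = 0.0234). In both, Sedentary replicate 1 was the closest Sedentary array, and the values within the shared strip were 1.58 and 1.48. Their nearest coding genes did not pass the test: Kcns3, a potassium channel subunit, had -0.56 (adjusted p = 0.237) and Chd1, a chromatin remodeller, had -0.17 (adjusted p = 0.39).

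The other named rises were brighter. E330012B07Rik (NR_033640) stood at 0.88, 0.62 and 0.93 on the Exercise and -0.24, -1.20 and -1.21 on the Sedentary arrays (log2 fold change 1.69 ± 0.28, adjusted p = 0.0237). Gm6116 (NR_045866) stood at 0.87, 0.48 and 0.62 against -0.43, -1.09 and -1.38 (1.62 ± 0.26, adjusted p = 0.0234). XR_381025 stood at 1.14, 1.71 and 1.80 against 0.12, -0.12 and -0.25 (1.64 ± 0.20, adjusted p = 0.0234). For XR_381025 the value within the strip, 1.43, was close to the full one, whereas for E330012B07Rik it was 1.05 and for Gm6116 1.09. XR_384438 had levels of 0.42, 0.34 and 0.55 against -0.74, -1.40 and -1.82 (1.76 ± 0.27, adjusted p = 0.0234; 1.18 within the strip). The nearest coding genes were Pthlh, which encodes a parathyroid-hormone-related hormone (0.31, adjusted p = 0.332), and Chic2 (0.12, adjusted p = 0.294), and neither passed the test.

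**Figure D3:**
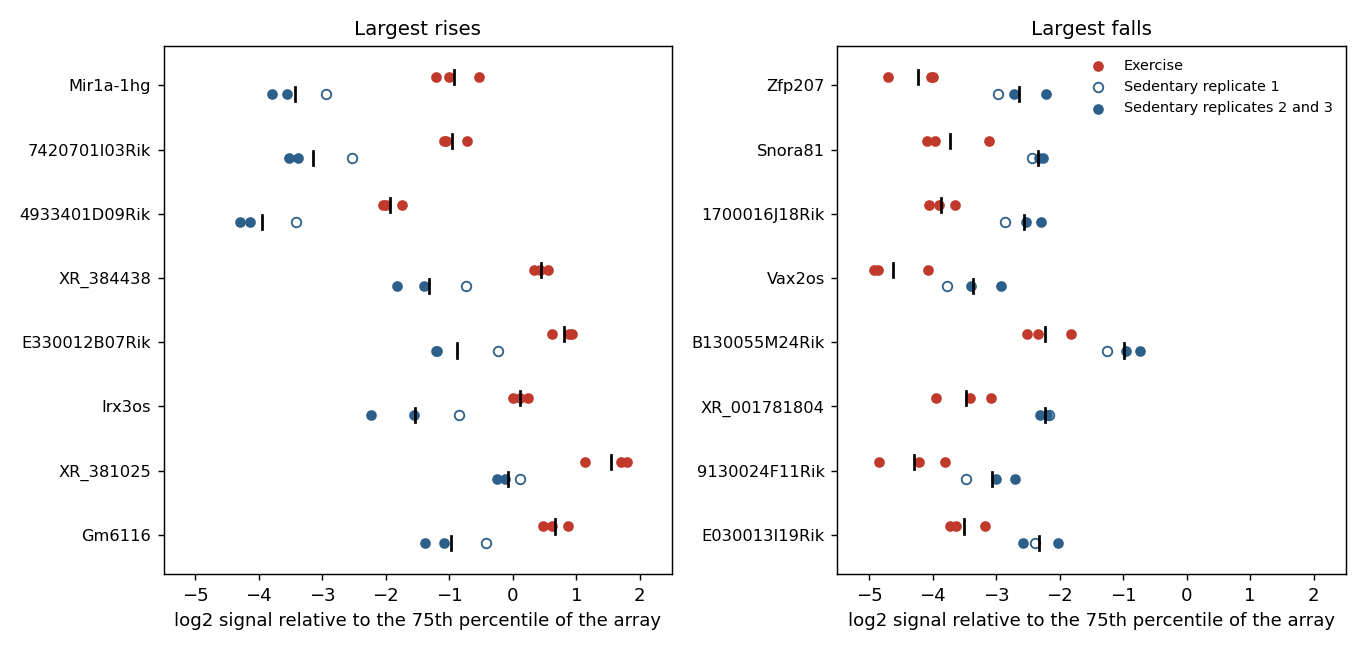
Log2 level relative to the 75th percentile of the array (x axis) on each array for the 8 largest rises (left) and 8 largest falls (right) among called noncoding transcripts measured in both groups, with Exercise in red, Sedentary in blue, Sedentary replicate 1 as an open circle and group means as black bars. No pair of groups overlaps, and in most rises Sedentary replicate 1 is the Sedentary array nearest to the Exercise group, as for Mir1a-1hg at -2.94 against -3.79 and -3.56.

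Opposite-strand RNAs are transcribed from the strand opposite a named partner gene, and some are known to affect that gene. Of 68 tested, 5 were called higher and 2 lower, and 37 had a positive log2 fold change. Of all transcripts tested 1.68% were called higher and 1.06% lower. Irx3os (XR_001778626), opposite the homeobox gene Irx3, was among the 8 largest rises, with 0.00, 0.12 and 0.24 on the Exercise and -0.85, -1.56 and -2.23 on the Sedentary arrays (1.67 ± 0.33, adjusted p = 0.0279; 0.97 within the strip). Irx3 itself had -0.12 (adjusted p = 0.316). The remaining 4 higher opposite-strand RNAs were singled out after their values were seen.

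Hk1os, opposite the hexokinase gene Hk1, was bright and tight, with 3.99, 3.78 and 4.01 in the Exercise and 2.99, 2.76 and 2.67 in sedentary mice. The log2 fold change was 1.12 ± 0.12 (adjusted p = 0.0234; 0.93 within the strip), while Hk1 had -0.27 (adjusted p = 0.123). Sox6os, opposite Sox6, a known repressor of slow-fibre genes, stood at -0.86, -0.86 and -0.41 against -1.76, -1.91 and -1.75 (1.10 ± 0.15, adjusted p = 0.0234), with 1.05 within the strip. Sox6 was at 0.64 ± 0.13 (adjusted p = 0.0311), in the same direction. Uckl1os had 2.04, 2.11 and 2.04 against 1.28, 0.50 and 0.15 (1.42 ± 0.28, adjusted p = 0.0272), with Uckl1 at -0.15 (adjusted p = 0.395), and its second transcript, NR_027290, had 0.94 (adjusted p = 0.0545). Junos, opposite the AP-1 subunit gene Jun, had -2.74, -2.46 and -2.44 against -3.68, -3.73 and -3.90 (1.22 ± 0.12, adjusted p = 0.0234), with Jun at 0.77 ± 0.22 (adjusted p = 0.0593). A second probe of the same Junos transcript had 0.03 (adjusted p = 0.895), so the rise of Junos rests on 1 of its probes.

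Across the 60 opposite-strand RNAs whose partner was also tested, 27 had the sign of the partner. As a description across genes, which are not independent and were measured on the same arrays, Pearson's r between the log2 fold changes was 0.28 and Spearman's rho was 0.06. Over 830 pairs of a lncRNA and its nearest coding gene r was 0.11 and rho 0.10, and over the 374 that overlap 0.20 and 0.19.

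**Figure D4:**
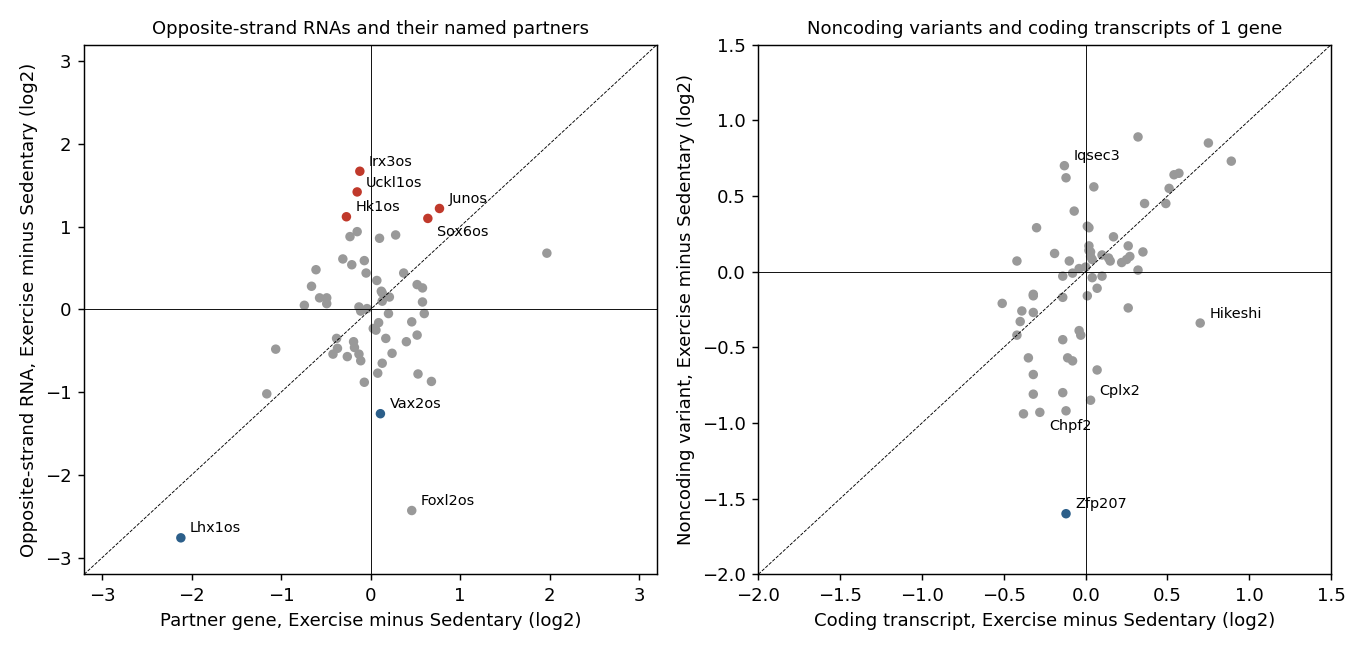
Exercise minus Sedentary log2 difference of 60 opposite-strand RNAs (left, y axis) against their partner genes (x axis) and of 66 noncoding variants of coding genes (right, y axis) against a coding transcript of the same gene (x axis), with called higher in red, called lower in blue and equality as a dashed line. Hk1os, Irx3os and Uckl1os lie high with partners slightly below 0, and Zfp207 lies at -1.60 with its coding transcript at -0.12.

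Myhas, an antisense RNA in the cluster of skeletal myosin heavy chain genes, was singled out after its values were seen because of that position. It had levels of -1.62, -1.73 and -1.88 on the Exercise and -3.11, -3.42 and -3.53 on the Sedentary arrays, well above background throughout. The log2 fold change was 1.61 ± 0.14 (adjusted p = 0.0234), and it was 1.37 within the shared strip. It overlaps Myh1 (0.41 ± 0.17, adjusted p = 0.144) and lies between Myh2 (0.42 ± 0.32, adjusted p = 0.378) and Myh4 (0.83 ± 0.19, adjusted p = 0.0367), which encode the heavy chains of fast fibres. The perinatal gene Myh8, further along, had 0.75 ± 0.16 (adjusted p = 0.0323).

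The brightest transcript called higher was Gm35107 (XR_391673), chosen for its level, with 8.44, 8.28 and 8.47 against 7.46, 6.84 and 6.50. Its log2 fold change was 1.46 ± 0.24 (adjusted p = 0.0239; 0.93 within the strip). Other bright calls, also picked after their values were seen, were 2310040G24Rik (5.58 ± 0.01 against 4.49 ± 0.42, SD, n = 3 each; log2 fold change 1.09), Prr33 (5.37 ± 0.11 against 4.30 ± 0.39; 1.07) and the transcribed pseudogene Gm13315 (5.55 ± 0.11 against 4.30 ± 0.26; 1.25). For Prr33 the value within the strip was 0.63 and for 2310040G24Rik 0.62, against 0.96 for Gm13315. The other transcribed pseudogenes called higher with all spots above background were Hmga2-ps1 (1.40), Gm4850 (1.27), AA619741 (1.03) and Sprr2g (1.01).

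Among the falls, the noncoding variant NR_045038 of Zfp207, a zinc finger gene whose protein acts at the mitotic spindle, had levels of -3.99, -4.70 and -4.03 on the Exercise and -2.98, -2.72 and -2.22 on the Sedentary arrays. Its log2 fold change was -1.60 ± 0.27 (adjusted p = 0.0239; -1.26 within the strip), and 2 of the 3 Exercise spots were well above background. A second noncoding variant of Zfp207, NR_156119, had -0.92 ± 0.14 (adjusted p = 0.0234), whereas the coding transcript had -0.12 (adjusted p = 0.287). The level of NR_045038 relative to the coding transcript was -8.84, -9.54 and -8.94 in the Exercise and -7.95, -7.74 and -7.20 in the Sedentary group, a difference of -1.48. The variant was named for its fall and its separate groups, so this difference is a description and was not tested. The neighbouring gene 5730455P16Rik had an adjusted p of 0.983.

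Zfp207 was 1 of 68 coding genes with a tested noncoding variant. Of the 71 variants 8 were higher and 11 lower by adjusted p alone, and the log2 fold changes of 66 variants and their coding transcripts had r = 0.54 and rho = 0.56 across genes. Of all transcripts tested 11.2% were higher and 6.02% lower by that count. Variants of 3 genes were picked after their values were seen. Snrnp70, a subunit of the U1 particle, was at -0.68 (adjusted p = 0.0234) with a coding transcript at -0.32 (adjusted p = 0.0433), Rbmx at -0.65 (adjusted p = 0.0333) with 0.07 (adjusted p = 0.823), and Hnrnpu at -0.57 (adjusted p = 0.0434) with -0.35 (adjusted p = 0.0666). Variants of Hnrnpa1 (0.17, adjusted p = 0.232), Hnrnpll (0.02, adjusted p = 0.927) and Sfpq (-0.27, adjusted p = 0.0884) did not pass the test. Only Zfp207 and Hikeshi, at -0.34 against 0.70 for its coding transcript, differed from the coding transcript by more than 1 among the 66.

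Snora81 (NR_034048), an H/ACA small nucleolar RNA of the kind that guides pseudouridylation, had levels of -3.97, -4.09 and -3.12 on the Exercise and -2.43, -2.27 and -2.32 on the Sedentary arrays. The log2 fold change was -1.38 ± 0.26 (adjusted p = 0.0256; -1.30 within the strip). It overlaps Eif4a2, which encodes a translation initiation helicase, and Eif4a2 had -0.06 ± 0.12 (adjusted p = 0.724). No other of the 11 small nucleolar RNAs was called.

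The next falls were mostly dim lncRNAs. 1700016J18Rik (XR_871596) stood at -4.06, -3.65 and -3.90 against -2.86, -2.30 and -2.53 (-1.31 ± 0.18, adjusted p = 0.0234), and Armc2, the gene it overlaps, at -1.41 ± 0.46 (adjusted p = 0.0824). B130055M24Rik (XR_869948) stood at -1.83, -2.52 and -2.35 against -1.26, -0.95 and -0.74 (-1.25 ± 0.22, adjusted p = 0.0242), with the overlapping Zfp689 at 0.20 (adjusted p = 0.214). XR_001781804, which had no reference match, stood at -3.41, -3.95 and -3.08 against -2.17, -2.31 and -2.20 (-1.25 ± 0.22, adjusted p = 0.0242). The value of XR_001781804 within the strip, -1.30, was as large as the full one. E030013I19Rik (NR_040353) stood at -3.73, -3.64 and -3.17 against -2.39, -2.02 and -2.58 (-1.19 ± 0.21, adjusted p = 0.0241), overlapping the integrin gene Itga8 (-0.32, adjusted p = 0.181).

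In the last pair of named falls only 1 Exercise spot each was well above background. Vax2os (NR_075094), opposite the homeobox gene Vax2, had -4.07, -4.86 and -4.93 against -3.78, -3.39 and -2.93 (-1.26 ± 0.31, adjusted p = 0.0412), with Vax2 at 0.11 (adjusted p = 0.682). 9130024F11Rik (NR_024325) had -4.85, -3.81 and -4.21 against -3.47, -3.01 and -2.71 (-1.23 ± 0.31, adjusted p = 0.0447). In both the groups were separate but close, with Sedentary replicate 1 nearest to the Exercise arrays.

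In 1 of the groups, every array was too dim to be well above background for 7 of the 63 higher and 10 of the 20 lower transcripts, so that the difference has only a lower bound. Such a transcript met the filter through its bright group alone, so the adjusted p belongs to a transcript that had to differ and is given as a description. With a filter on all 6 arrays, which leaves these out, 55 higher and 8 lower were called. Gm35204 (XR_385594) had levels of -1.62, -3.94 and -2.29 in the Exercise group, where all spots were above background, and -5.27, -6.90 and -6.75 in the Sedentary group, and was at least 4.63-fold higher (adjusted p = 0.0261). XR_389128 (-3.62 ± 0.40 against -6.07 ± 1.02) was at least 2.31-fold higher (adjusted p = 0.0305) and 1700039E22Rik, which overlaps the gene of the transcription factor Pax2 (-3.64 ± 0.40 against -5.34 ± 0.24), at least 2.28-fold higher (adjusted p = 0.0234). In the other direction AI606473 (NR_040387) had -5.61, -4.91 and -4.37 in the Exercise and -3.33, -1.18 and -1.37 in the Sedentary group and was at least 5.55-fold lower (adjusted p = 0.0303). XR_880540 (-4.80 ± 0.25 against -3.07 ± 0.87) was at least 2.62-fold lower (adjusted p = 0.0418).

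Lhx1os (NR_038057), opposite the LIM homeobox gene Lhx1, was at least 4.69-fold lower (adjusted p = 0.0335). Its levels were -4.86, -5.65 and -4.13 in the Exercise and -3.31, -1.29 and -1.77 in the Sedentary group, so that Sedentary replicate 1 was again nearest to the Exercise arrays. Lhx1 itself was at -2.12 ± 0.56 (adjusted p = 0.0502).

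Known noncoding RNAs were described by lists. The list of nuclear and chromatin-associated lncRNAs held 25 genes. Of these, 15 genes with 18 transcripts were tested and 0 transcripts were called, against 1.68% called higher and 1.06% lower of all transcripts tested. Malat1, Hotair and Hottip were among the genes not tested. By adjusted p alone 0 were higher and 3 lower, against 11.2% and 6.02% of all transcripts tested. Firre, an X-linked RNA that anchors chromatin, was at -0.13, 0.33 and 0.20 on the Exercise and 0.81, 0.94 and 0.81 on the Sedentary arrays (-0.72 ± 0.14, adjusted p = 0.0264; -0.67 within the strip). Tug1 (-0.45 ± 0.10, adjusted p = 0.0374) and Dleu2 were the others. Neat1, the scaffold of paraspeckles, was at -0.14, 0.08 and 0.38 against 0.31, 0.59 and 0.62, with overlapping groups (-0.40 ± 0.16, adjusted p = 0.128). The largest in size were Firre (-0.72), Dnm3os (-0.62) and, at the same size, Dleu2 (-0.47) and 1 transcript of Airn (0.47, adjusted p = 0.172), and 13 of the 18 values were negative (median -0.11), a count that went from 10 with array median scaling to 17 without scaling. The abundant Norad, which was on this list although it is a cytoplasmic RNA that binds Pumilio proteins, was at -0.08 (adjusted p = 0.638). Kcnq1ot1, an imprinted antisense RNA, was at 0.06 (adjusted p = 0.745).

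Hosts of small nucleolar RNAs, which carry these RNAs in their introns, had 18 tested and 0 called. Of all transcripts tested 1.68% were called higher and 1.06% lower. Snhg20 was lower by adjusted p alone, with 2.48, 2.45 and 2.33 on the Exercise and 3.11, 3.11 and 2.99 on the Sedentary arrays (-0.65 ± 0.09, adjusted p = 0.0234; -0.69 within the strip). Snhg6 was higher, with 4.68, 4.76 and 4.66 against 4.29, 4.30 and 4.21 (0.44 ± 0.08, adjusted p = 0.0257; 0.41 within the strip). These hosts thus differed by less than the fold threshold but with narrow spreads, and their values within the strip were close to the full ones. The third largest in size was Snhg7 (-0.29 ± 0.09, adjusted p = 0.0641). Gas5 was at 5.25 ± 0.03 against 5.34 ± 0.07 (SD, n = 3; -0.09, adjusted p = 0.458). Over the list 10 values were positive and 8 negative, median 0.01, and the sign of most members turned with the scaling (14 positive with array median scaling, 0 without scaling).

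The list of lncRNAs known from muscle held 26 genes, of which 10 were tested, with 12 transcripts. Among those not tested were Linc-md1, Charme, Lncmyod, Myoparr and Malat1, and the list lacks Mir1a-1hg and Myhas. Over all transcripts tested 1.68% were called higher and 1.06% lower, and by adjusted p alone 11.2% and 6.02%. Of the 12 transcripts 0 were called and, by adjusted p alone, Tug1 was lower. Their median was -0.13, with 4 positive and 8 negative, a negative count of 7 with array median scaling and 12 without scaling. The largest in size were Dnm3os, Tug1 and Atcayos (0.44 ± 0.17, adjusted p = 0.115). Of the 5 listed X-inactivation RNAs only Jpx was tested in these males (0.15, adjusted p = 0.49), and Xist and Tsix were not.

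None of the 7 small structural RNAs tested passed at an adjusted p under 0.05 (limma), where 11.2% of all transcripts tested were higher and 6.02% lower. The 7 RNAs lay between -0.26 and 0.16 on the log2 scale (median 0.01). Rn7sk, which holds back transcription elongation, was at 5.0 ± 0.09 against 4.93 ± 0.09 (SD, n = 3; 0.07, adjusted p = 0.619), and Rn7s1, the RNA of the signal recognition particle, at 4.64 ± 0.10 against 4.48 ± 0.08 (0.16, adjusted p = 0.264). The 3 largest in size were Terc, the telomerase RNA (-0.26, adjusted p = 0.515, well above background on 1 Exercise array), Vaultrc5, a vault RNA (-0.21, adjusted p = 0.235), and Rn7s1. The signs again depended on the scaling, with 5 positive under array median scaling and 0 without scaling.

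The protein partners of these RNAs were read from lists. Of 9 paraspeckle proteins 9 had negative values (median -0.28), as they did without scaling and in the authors' table, whereas 8 did with array median scaling, and 0 passed at an adjusted p under 0.05. Of 9 proteins of RNase P and MRP, which cut tRNA and rRNA precursors, 4 were higher at an adjusted p under 0.05 and 0 lower (median 0.32), among them Pop5 (0.63, adjusted p = 0.0252) and Rpp21 (0.49, adjusted p = 0.0239), while their RNAs Rpph1 (0.09, adjusted p = 0.798) and Rmrp (0.01, adjusted p = 0.951) did not pass. By adjusted p alone 11.2% of all transcripts tested were higher and 6.02% lower. Without scaling 6 of these 9 proteins were negative. Of 8 proteins of small nucleolar particles 1 was higher, the pseudouridine synthase gene Dkc1 (0.40, adjusted p = 0.0381), of 6 proteins of the 7SK particle 0 passed (median -0.25), and of 9 microRNA processing proteins 1 was lower, the export factor Xpo5 (-0.33, adjusted p = 0.0425).

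**Figure D5:**
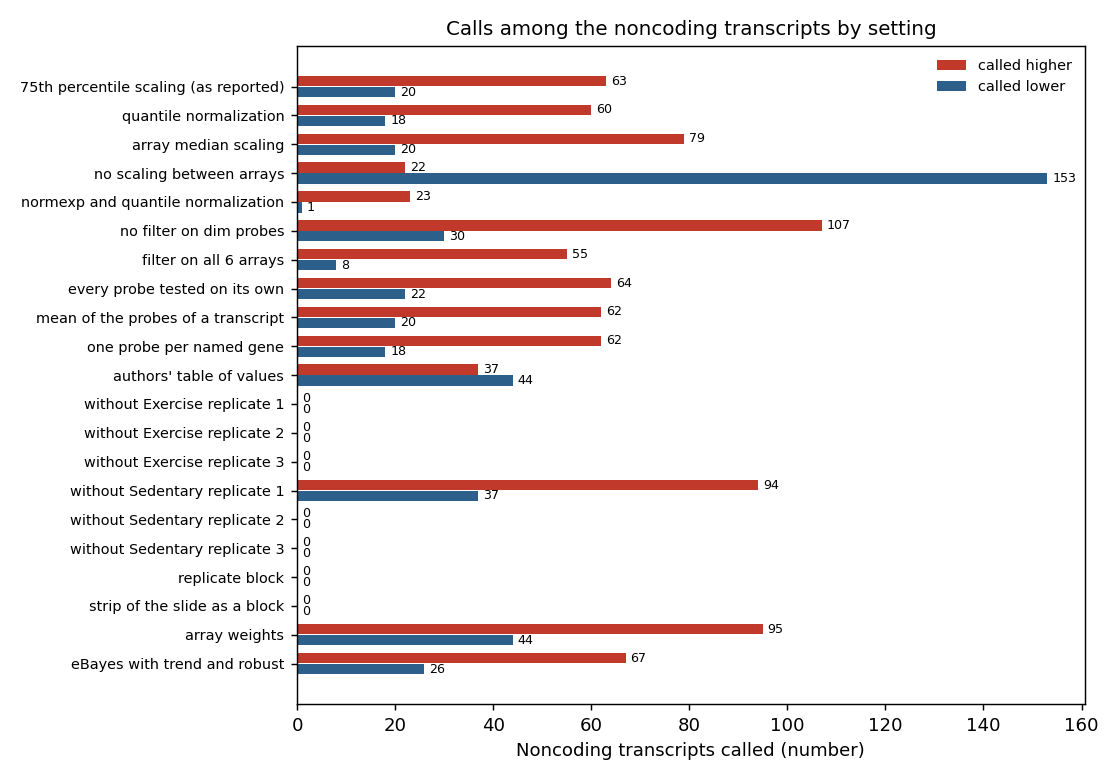
Number of noncoding transcripts called higher (red) and lower (blue) in exercised muscle (x axis) under each setting (y axis). Scaling left 60 and 18 calls with quantile normalization and 22 and 153 without scaling, and no call was left without any 1 of 5 of the arrays.

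The plot of calls by setting shows how far the counts rest on the arrays, their scaling and the background correction. The smallest log2 fold change among the transcripts called higher went from 1.00 to 0.20 after normexp background correction and to 0.44 with the strip as a block. Among those called lower the smallest in size went from -1.18 to -0.20 and to -0.67.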

How the data were processed

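Gene expression in quadriceps was measured on 6 one-colour Agilent arrays. Per the file headers, the deposited processed signal is a linear intensity that the authors obtained with Agilent Feature Extraction 12.1.0.3, background-subtracted and spatially detrended. A further deposited table held values that were the processed signal times 1 factor per array, and flags for signal well above background. Control spots and outliers were dropped, repeated spots of a probe averaged, and log2 values were taken relative to the 75th percentile of each array. A transcript (the accession on the array) was represented by its probe with the highest mean and was tested if well above background on at least 3 arrays. The Exercise and Sedentary arrays entered a linear model without covariates (R 4.3.3; limma 3.58.1, functions lmFit and eBayes). Tests were two-sided, with Benjamini-Hochberg adjustment across the 26990 transcripts, and calls needed an adjusted p under 0.05 together with a log2 change of 1 or more in size. The test was tried on simulated arrays. A transcript not well above background in 1 group is given as a bound, the bright group's mean over the higher of the dim value and the lowest signal well above background on each array.

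Names came from a RefSeq table of GRCm38.p6, used for names and order on the chromosome. Of 4542 noncoding transcripts 3846 matched, and the others keep their accession. Array design coordinates were not used. Named transcripts are the 8 largest rises and falls among calls measured in both groups, the 3 largest bounds each way, the 3 largest of each noncoding list, and nearest genes, of which 1 is not reported here. The lists are nuclear, X-inactivation, small nucleolar RNA host, microRNA host, muscle and small structural RNAs, their protein partners, and cell type markers. Members and lists were chosen with earlier results of these data known. Levels of different transcripts come from different probes and are not ranked as abundances. The number of arrays limits the precision.

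Alternatives were other scalings, normexp (offset 50), filters, probe summaries, the authors' table, arrays left out in turn, replicate number and strip as blocks, array weights, and eBayes with trend and robust.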

Additional observations from a re-analysis of the deposited data

How the results depend on the processing

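The 63 higher and 20 lower calls became 22 and 153 without scaling, 37 and 44 in the authors' table, 23 and 1 after normexp with quantile normalization, 107 and 30 without a filter, 55 and 8 with a filter on all 6 arrays, and 95 and 44 with array weights. Without Sedentary replicate 1 there were 94 and 37, and without each other array 0 and 0. With the replicate block there were 0 and 0, although 586 noncoding transcripts had an unadjusted p under 0.05 against 596 without it, and with the strip as a block there were 0 and 0 (348 unadjusted). Arrays of the same number deviated together with correlations of only 0.012, 0.085 and 0.034, so the numbers were not taken as pairs. NR_ transcripts alone gave 35 and 15, XR_ transcripts 28 and 5. The other alternatives left both counts within 1.5 times, with 60 to 79 higher and 18 to 26 lower. The median log2 fold change of 0.104 moved to 0.192 (array median), -0.369 (no scaling), 0.044 (normexp), 0.350 (no filter), 0.117 (1 probe per gene), -0.054 (authors' table), 0.090 (strip), 0.077 (NR_) and 0.172 (XR_), and lay between 0.085 and 0.121 with 1 array left out. Of the 22 named calls 14 lost the thresholds after normexp, and the cause was not tested. For dim spots, signal over background limits what can be seen. With 1 array left out in turn, unadjusted p under 0.05 held for 462 to 638 noncoding transcripts (limma).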
